A study of Mus musculus with 24 samples.

Results

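The comparison described here set 4 arrays from mice given toosendanin for 9 days against 4 arrays from mice given it for 3 days, 8 of the 24 arrays of the series. Toosendanin (TSN) is a limonoid from the chinaberry tree with known liver toxicity, and every mouse of both groups received 80 mg/kg. The animals were male BALB/c mice, serum was drawn a day after the last dose, and RNA of the serum exosomes was read on a one-colour mouse miRNA array. The other 16 arrays came from mice given TSN for 21 days and from mice given vehicle for 3, 9 or 21 days, 4 arrays per group. Age, and whether a sample was a single animal or a pool, are not given in the sources used here, so p-values measure only the spread between these samples. The array held 1881 miRNAs besides its controls. Tested were the 444 that every one of the 4 arrays of some group, of the 6, read well above background, and 362 of them were well above background on all 8 arrays compared here.

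MicroRNAs are short RNAs that guide Argonaute proteins to messenger RNAs, mainly by pairing of the seed, bases 2 to 8 counted from the 5′ end. Cells release them in exosomes and other vesicles, bound to proteins, or when the cells break, and serum therefore carries miRNAs of red cells, platelets, leukocytes, liver and muscle side by side. Some are used as markers of a tissue, among them miR-122-5p of hepatocytes, miR-451a and miR-486a-5p of red cells and miR-1a-3p and miR-133 of striated muscle. A miRNA array holds no exosome protein marker, so the label of the samples as exosomes could not be checked on it. In a bulk sample of serum, more cells of a type and more RNA from each cell cannot be told apart.

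Several of the miRNAs that rose from day 3 to day 9 share a seed, and their mature sequences are shown first because the groups below follow them. Sequences are those of RefSeq (GRCm38.p6) for 373 of the 444 tested miRNAs, in lower case with the seed in capitals. These 5 share the seed of miR-106b-5p, the miRNA named in the title of the series, and all rose.
miR-106b-5p: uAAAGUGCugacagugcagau
miR-93-5p: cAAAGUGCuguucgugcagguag
miR-20a-5p: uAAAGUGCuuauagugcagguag
miR-20b-5p: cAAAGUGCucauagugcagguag
miR-17-5p: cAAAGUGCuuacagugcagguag

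A second group shares the seed of miR-15 and miR-16, and another that of miR-25 and miR-92.
miR-16-5p: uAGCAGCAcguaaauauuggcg
miR-15a-5p: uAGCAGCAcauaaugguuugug
miR-15b-5p: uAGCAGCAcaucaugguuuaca
miR-195a-5p: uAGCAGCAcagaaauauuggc
miR-25-3p: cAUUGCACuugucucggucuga
miR-92a-3p: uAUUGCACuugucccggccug

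Single members with large rises were miR-133b-3p of muscle and miR-451a of red cells, and those with large falls had seeds unlike these.
miR-133b-3p: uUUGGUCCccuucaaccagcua
miR-451a: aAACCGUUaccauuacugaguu
miR-208a-5p: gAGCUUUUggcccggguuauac
miR-3963: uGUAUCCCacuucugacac
miR-7217-5p: aACUUGUAucuugugagacagaagg
miR-5100: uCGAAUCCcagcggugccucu
miR-142a-3p: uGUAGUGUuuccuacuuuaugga
miR-26a-5p: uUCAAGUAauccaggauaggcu

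Between day 3 and day 9 of dosing, striated muscle miRNAs rose most, most listed red cell miRNAs and members of the miR-17 and miR-15/16 seed families rose with list medians of 0.56 to 1.01 on the log2 scale, and many miRNAs with high miRBase numbers fell. Values are scaled signals on the log2 scale, in which 0 is the array's own 75th percentile over 261 probes well above background on all 24 arrays, and a change is the day 9 mean minus the day 3 mean, with its standard error (SE). In a limma fit over all 24 arrays, 155 of the 444 miRNAs (34.9%) passed a Benjamini-Hochberg adjusted p of 0.05. Of these, 44 (9.91% of those tested) were higher at day 9 and 111 (25%) lower. The median change of all tested miRNAs was -0.17. Among the calls, 145 were well above background on all 8 arrays, 37 higher and 108 lower. More than a 2-fold change was reached by 9 of the higher and 29 of the lower calls. The 4 values of day 9 did not overlap the 4 of day 3 for 106 of the 155 calls, against 127 (28.6%) of all tested miRNAs, 43 (9.68%) higher and 84 (18.9%) lower.

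The split between higher and lower calls moved with the scaling, and the changes below are therefore read relative to the 75th percentile. The 9 other scalings tried on all 24 arrays raised the median change by 0.10 to 0.28. With no scaling 47 miRNAs were higher and 19 lower. Scaling by the 75th percentile over all probes gave 59 higher and 26 lower, and by that over probes well above background on the 8 arrays 103 and 58. Quantile normalization gave 68 higher and 76 lower, the median of the miRNAs above background on the 8 arrays 66 and 91, and the authors' deposited values 59 and 54. The 4 spike-in genes gave 57 and 25, their labelling pair alone 76 and 30, their hybridisation pair alone 42 and 23, and a fit on the 8 arrays alone 106 and 53. All 44 higher calls kept their direction under the 9 scalings of all 24 arrays, and 21 stayed called under all 9. Of the 111 lower calls, 6 changed direction under some of the 9 and 7 stayed called under all. Because all 9 raised the median change, they could reverse falls more readily than rises. Kept direction, here and in list medians below, is therefore a weaker check on rises.

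**Figure D1:**
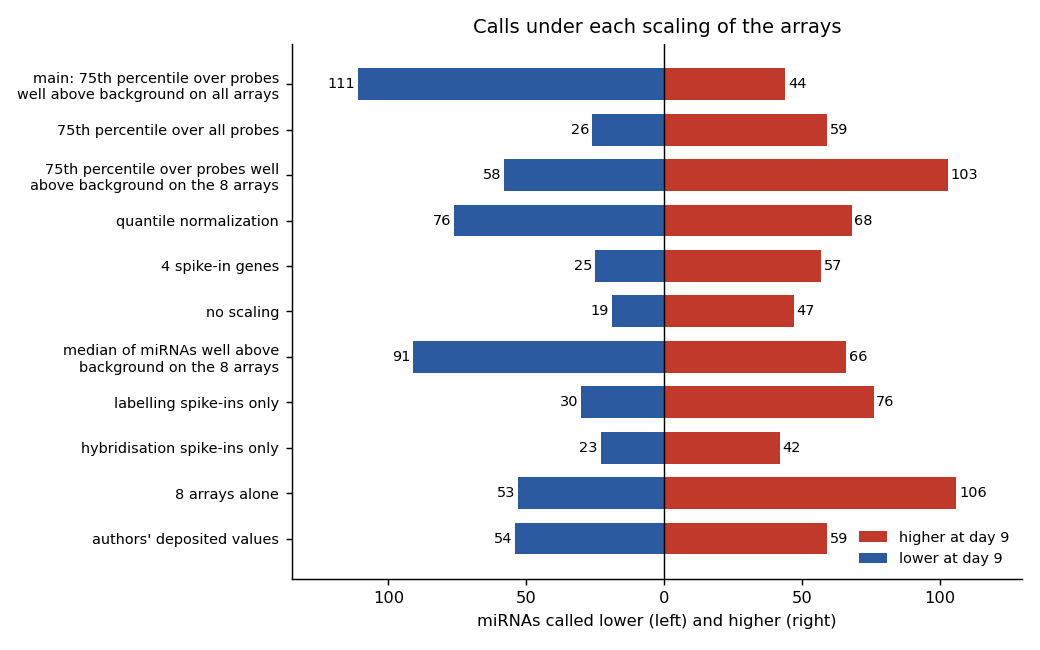
Number of miRNAs called lower (bars to the left) and higher (bars to the right) at TSN day 9 against day 3 by limma at an adjusted p of 0.05, under each scaling of the arrays. With the main scaling 111 were lower and 44 higher, while with the 75th percentile over the probes of the 8 arrays 58 were lower and 103 higher.

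**Figure D2:**
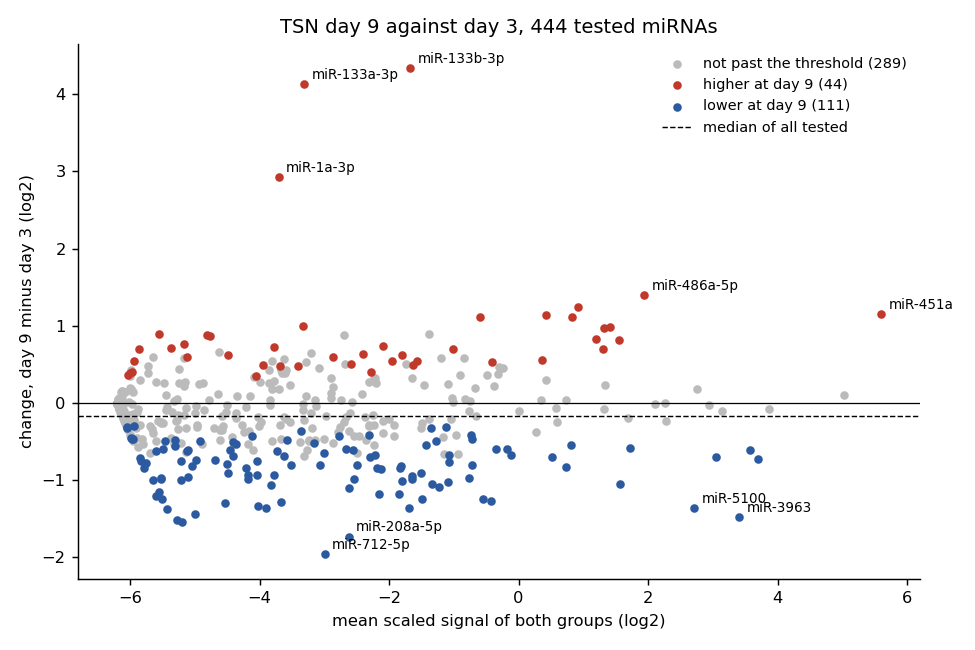
Change from TSN day 3 to day 9 (log2) against the mean scaled signal of both groups (log2), 1 point per tested miRNA, coloured by its call; the dashed line is the median change of -0.17. The 3 muscle miRNAs lie far above all others, at 2.93 to 4.34, and miR-451a is the brightest miRNA.

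The 4 day 3 arrays lay on one slide and the 4 day 9 arrays on another, which also held TSN day 21, so day and slide cannot be told apart between days 3 and 9. Before scaling, the 75th percentile was 10.14 (SD 0.453) at day 3 and 10.57 (SD 0.146) at day 9 on the log2 scale, a 1.34-fold difference (exact two-sided permutation p = 0.114, Benjamini-Hochberg adjusted p = 0.4 over 6 array measures; the smallest possible p is 0.0286). Without day 3 replicate 1 the difference was 0.57 on the log2 scale (exact permutation p = 0.0286). Day 3 replicate 2 was the dimmest of the 8, at 9.53, with 379 miRNAs well above background against 427 to 461 on the others. The mean number of such miRNAs was 434 (SD 38.4) and 440 (SD 8.77; exact p = 0.914, adjusted p = 1), and without day 3 replicate 2 the difference was -12.25. The labelling spike-ins averaged 10.30 in both groups. Over the 362 miRNAs above background on all 8, arrays correlated at r of 0.974 to 0.987 within day 3, 0.973 to 0.99 within day 9 and 0.916 to 0.973 between the days.

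Striated muscle miRNAs showed the largest rises of all tested miRNAs. miR-133b-3p, which is made in skeletal and heart muscle and regulates myoblast growth, read -3.18, -4.39, -3.41 and -4.38 on the day 3 arrays and -1.71, 1.46, 0.33 and 1.90 on the day 9 arrays. All day 9 arrays were above all day 3 arrays, and day 9 replicate 1 was well below the others of its group. The rise was 4.34 (SE 0.582, limma adjusted p = 2.81e-05), or 20.2-fold. miR-133a-3p, its close relative, read -4.62, -6.11, -4.85 and -5.91 at day 3, where 3 of 4 arrays were well above background, and -3.45, -0.52, -0.86 and -0.13 at day 9. Again the groups did not overlap and day 9 replicate 1 was the lowest of its day. The rise was 4.13 (SE 0.534, adjusted p = 2.24e-05), or 17.5-fold.

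miR-1a-3p, the miRNA most abundant in heart and skeletal muscle, read -4.95, -5.05, -5.04 and -5.63 at day 3 and -3.75, -1.96, -1.17 and -2.08 at day 9. It rose in every array of day 9 against every array of day 3, by 2.93 (SE 0.436, adjusted p = 6.07e-05) or 7.60-fold. The SD of miR-1a-3p was 0.31 at day 3 and 1.08 at day 9, so the shared SE understates its day 9 spread too. The fourth tested member of the list, miR-378a-3p, made from an intron of Ppargc1b in muscle and other tissues, ranged from -3.81 to -2.07 at day 3 and from -3.26 to -2.42 at day 9, a change of 0.13 (SE 0.479, adjusted p = 0.905). The list as a whole thus had 3 of 4 tested members higher and a median change of 3.53, beside -0.17 for all tested miRNAs. The log2 of its summed scaled signal was -2.55 to -1.48 on the day 3 arrays and -0.80 to 2.32 on the day 9 arrays. The skeletal muscle miRNA miR-206-3p and the heart miRNAs miR-208a-3p, miR-208b-3p and miR-499-5p were well above background on none of the 24 arrays. With the software's total gene signal in place of the probe means, miR-133a-3p (2.78, adjusted p = 0.214) and miR-1a-3p (1.85, adjusted p = 0.611) no longer passed. Both stayed called at smaller sizes with normexp (2.36 and 1.42) and with the authors' deposited values (2.47 and 1.83). Normexp is a background correction, run here with an offset of 50 added to every signal before scaling. That offset draws changes of dim miRNAs toward 0. A dim miRNA's call lost with normexp, here and below, therefore does not decide whether it changed.

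Red cell miRNAs rose as a group, 5 of the 6 listed (83.3% called higher, beside 9.91% of all tested miRNAs). miR-451a, which is made by red cell precursors without Dicer and was the brightest miRNA of both days, read 5.11, 5.07, 4.59 and 5.36 at day 3 and 6.34, 6.22, 6.01 and 6.14 at day 9. Every day 9 value was above every day 3 value. The rise was 1.15 (SE 0.234, adjusted p = 0.000872), or 2.21-fold, and the share of miR-451a in the summed mean signal of the tested miRNAs was 11.2% at day 3 and 23.8% at day 9. The next brightest, miR-1224-5p, had means of 4.98 and 5.08. The call of miR-451a was lost under quantile normalization, where its change was 0.10 (adjusted p = 0.748), with no scaling (1.57, adjusted p = 0.052) and with the hybridisation spike-ins (1.51, adjusted p = 0.068).

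miR-486a-5p, which is processed from an intron of the ankyrin gene Ank1, read 1.55, 0.94, 0.87 and 1.61 at day 3 and 2.71, 2.99, 2.34 and 2.53 at day 9. The days were well apart, with a rise of 1.40 (SE 0.216, adjusted p = 8.74e-05). Its passenger strand miR-486a-3p, a dim signal, rose by 0.87 (SE 0.218, adjusted p = 0.00393). miR-144-3p, transcribed with miR-451a from one locus (chr11:78073010-78073207), rose by 0.83 (SE 0.241, adjusted p = 0.0108), from a range of 0.20 to 1.14 to one of 1.29 to 1.90. The opposite strand of the same hairpin, miR-144-5p, was the member that did not pass, at -0.14 (SE 0.301, adjusted p = 0.787), with overlapping ranges of -3.52 to -2.82 and -3.75 to -2.66. The median change of the 6 was 1.01, and the log2 of their summed signal was 4.82 to 5.59 at day 3 and 6.23 to 6.56 at day 9. Over the 9 scalings 3 to 5 of them were called higher, and miR-144-3p kept its call under 5. A measure of hemolysis is not among the labels, and its part in the result was not tested. Which cells released miR-486a-5p, placed here on the red cell list only, was not tested either.

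**Figure D3:**
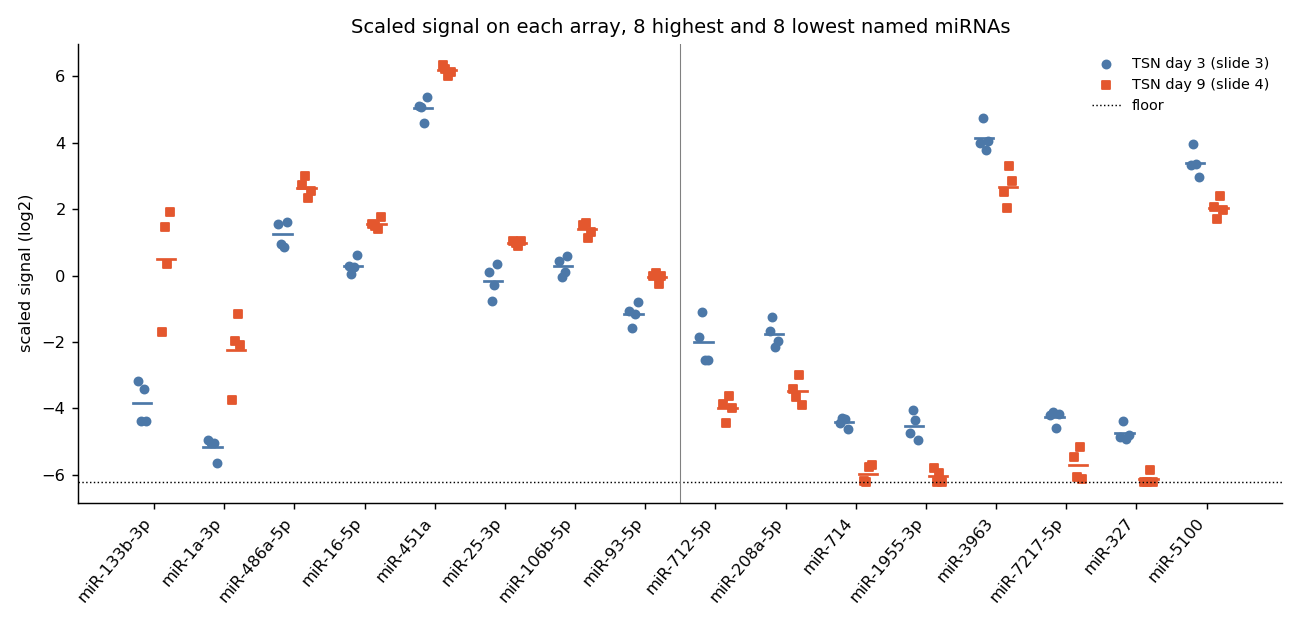
Scaled signal (log2) on each of the 4 arrays of TSN day 3 (circles) and TSN day 9 (squares) for the 8 highest and the 8 lowest miRNAs called without overlap; horizontal bars are group means and the dotted line is the floor of -6.21. Day 9 replicate 1 is the low square of miR-133b-3p and miR-1a-3p, and day 9 values of miR-714, miR-1955-3p and miR-327 lie at or near the floor.

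All 5 tested miRNAs of the miR-17 seed family rose. miR-106b-5p, known as a repressor of the cell cycle inhibitor p21, read 0.45, -0.04, 0.10 and 0.58 at day 3 and 1.51, 1.59, 1.13 and 1.31 at day 9. Its days did not overlap and the rise was 1.11 (SE 0.189, adjusted p = 0.000214), or 2.16-fold, a call it kept under all 9 scalings. miR-93-5p, from the same transcript, rose by 1.11 (SE 0.181, adjusted p = 0.000164), from values between -1.58 and -0.81 to values between -0.25 and 0.06. miR-20a-5p (0.56), miR-20b-5p (0.53) and miR-17-5p (0.48, overlapping ranges) rose less, with adjusted p of 0.00531, 0.0073 and 0.0127. Over the 9 scalings 3 to 5 members were called higher, and the calls of miR-20a-5p and miR-20b-5p were kept under 6 and 7. The family's median change was 0.56. As a description, by Pearson correlation over the 8 arrays, which largely repeats the gap between the days, the miRNAs most like miR-106b-5p were miR-486a-5p (r = 0.994), miR-15b-3p (0.988), miR-93-5p (0.986), miR-15b-5p (0.974) and miR-486b-3p (0.974).

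The third miRNA of the miR-106b locus (chr5:138165332-138165807, minus strand), miR-25-3p, has another seed. It read 0.09, -0.77, -0.30 and 0.36 at day 3 and 1.05, 0.98, 0.90 and 1.03 at day 9, with the day 3 arrays spread widely and the day 9 arrays close together. It rose by 1.14 (SE 0.217, adjusted p = 0.000534), so all 3 miRNAs of this locus were higher at day 9. Its call was lost with no scaling (adjusted p = 0.0885) and with the hybridisation spike-ins (0.104). miR-92a-3p, which shares the seed of miR-25-3p and has 18 of 21 compared bases in common with it, rose by 0.70 (SE 0.18, adjusted p = 0.00468), a call lost under 3 of the 9 scalings and with the total gene signal (adjusted p = 0.0687). Among all tested miRNAs 9.91% were higher. At the miR-17-92 locus (chr14:115043684-115044496, plus strand), whose miRNAs promote growth of B cells and other dividing cells, 6 of 8 tested mature miRNAs were higher and none lower. Besides those named, these were miR-17-3p (0.76), miR-18a-5p (0.47) and miR-19a-3p (0.62, kept under 6 of the 9 scalings). miR-19b-3p at 0.47 (adjusted p = 0.0604) and miR-18a-3p at 0.00, which lay at the floor, were the members that did not pass.

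The miR-15/16 seed family, known for repressing BCL2 and cyclins, had 4 of 6 tested members higher and a median of 0.72. For this family (66.7%) and the miR-30 family below (80%), the share of all tested miRNAs called higher was 9.91%. miR-16-5p, the usual reference miRNA of serum studies and an abundant red cell miRNA, read 0.28, 0.05, 0.26 and 0.62 at day 3 and 1.56, 1.48, 1.41 and 1.75 at day 9. With no overlap, it rose by 1.25 (SE 0.181, adjusted p = 4.89e-05). miR-15a-5p (0.97, adjusted p = 0.00114) and miR-15b-5p (0.82, adjusted p = 0.000723), each call lost under 2 of the 9 scalings, rose as well. So did miR-195a-5p (0.62, adjusted p = 0.00741). Over the 9 scalings 2 to 5 members of this family were called higher. miR-322-5p (-0.33) and miR-497a-5p (0.26) did not pass, though they carry the same seed. The miR-30 family, enriched in epithelia and fibroblasts, had 4 of 5 higher, led by miR-30a-5p, which rose from values between -3.98 and -3.59 to values between -3.10 and -2.56, by 0.99 (SE 0.134, adjusted p = 2.81e-05). miR-30b-5p (0.74), miR-30e-5p (0.49) and miR-30d-5p (0.35) followed, while miR-30c-5p at 0.33 (adjusted p = 0.0888) did not pass. The calls of miR-30a-5p and miR-30b-5p were lost with no scaling and the hybridisation spike-ins, with normexp (0.59 and 0.55, adjusted p = 0.109 and 0.173) and with the total gene signal (0.301 and 0.508). The miR-30 median was 0.49, positive under all 9 scalings, with 0 to 5 members called higher by limma.

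Probes of family members can pick up each other's miRNA where sequences are nearly alike, and this was not tested. miR-29a-3p and miR-29c-3p, for example, share 21 of 22 compared bases, miR-106b-5p and miR-93-5p 16 of 21, and miR-15b-5p and miR-16-5p 14 of 22. Bases were compared only for pairs of miRNAs named by rule, and closer pairs exist in these families. In the sequences printed above, miR-17-5p, miR-20a-5p and miR-20b-5p are more alike than miR-106b-5p and miR-93-5p. Likewise miR-16-5p is more like miR-195a-5p than like miR-15b-5p.

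**Figure D4:**
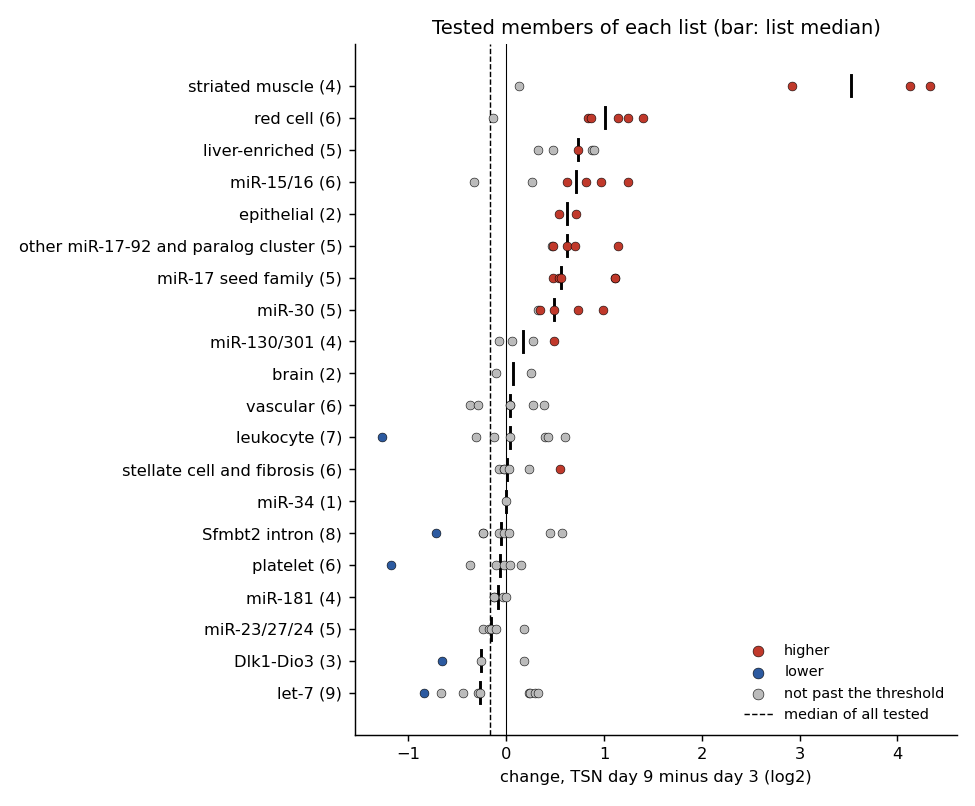
Change from TSN day 3 to day 9 (log2) of each tested member of each miRNA list, with the number tested in parentheses, coloured by its call; the vertical bar is the list's median and the dashed line the median of all tested miRNAs, -0.17. The muscle, red cell, miR-15/16, miR-17 and miR-30 lists lie to the right, while let-7 and the platelet list lie around 0.

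Of the liver miRNAs, 1 of 5 tested passed (20% higher, beside 9.91% of all tested miRNAs). miR-122-5p, the most abundant miRNA of hepatocytes and a serum marker of their injury, read -3.44, -3.62, -1.59 and -3.91 at day 3 and -3.87, -2.34, -3.81 and 0.97 at day 9. Day 9 replicate 4 was by far the highest of the 8, and the other 7 overlapped. The change was 0.88 with a 95% interval of -0.81 to 2.57 (adjusted p = 0.411). miR-192-5p, also abundant in liver and gut, gave the same picture, at -1.66, -1.26, -2.20 and 1.40 at day 9 against -2.16 to -1.20 at day 3 (change 0.89, SE 0.503, adjusted p = 0.179). Both were singled out after their values were seen. miR-101a-3p, a repressor of the methyltransferase EZH2, was the member that passed, at 0.73 (SE 0.17, adjusted p = 0.00234), from values between -4.27 and -3.99 to values between -3.56 and -3.20. Its call was lost with normexp (0.29, adjusted p = 0.945), whose offset draws dim miRNAs toward 0, and with the total gene signal (adjusted p = 0.661). miR-101b-3p at 0.48 (adjusted p = 0.0585) and miR-148a-3p at 0.33 (adjusted p = 0.181) did not pass. The list median was 0.73, or 0.25 without day 9 replicate 4, and over the 9 scalings 2 to 3 members were called higher.

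Platelet and leukocyte miRNAs were mostly without a call, apart from 1 fall in each list. Lower calls were thus 16.7% and 14.3% of the tested members, beside 25% of all tested miRNAs. miR-26a-5p, an abundant miRNA of platelets and many tissues that represses EZH2, read -1.90, -1.19, -1.52 and -1.65 at day 3 and -2.40, -2.72, -2.64 and -3.22 at day 9. It fell by 1.18 (SE 0.235, adjusted p = 0.000723) with no overlap. Its call was lost with the 4 spike-in genes (adjusted p = 0.0809), their hybridisation pair (0.27) and no scaling (0.309). The other 5 platelet miRNAs lay between -0.37 (miR-126a-3p, adjusted p = 0.13) and 0.15 (miR-191-5p, adjusted p = 0.45), with miR-21a-5p at -0.02 and the list median at -0.06, which turned positive under 7 of 9 scalings.

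miR-142a-3p, made in all blood-forming lineages, read 0.04, 0.56, 0.05 and 0.15 at day 3 and -0.57, -1.04, -1.06 and -1.60 at day 9. It fell by 1.27 (SE 0.288, adjusted p = 0.00197) with the days apart, and its call was lost under 4 of the 9 scalings. The other strand of its hairpin, miR-142a-5p, was at -0.31 (adjusted p = 0.181). Of the remaining leukocyte miRNAs, the neutrophil and monocyte miRNA miR-223-3p was at 0.04, the lymphocyte miRNA miR-150-5p at 0.60 (adjusted p = 0.0935) and miR-146a-5p, induced by NF-kB, at 0.43 (adjusted p = 0.1). None of them passed, and miR-155-5p was well above background on no array.

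Other tissue lists held few calls. In the stellate cell and fibrosis list, miR-29c-3p, which represses collagens, rose by 0.55 (SE 0.177, adjusted p = 0.0208), while miR-29a-3p (0.24), miR-29b-3p (0.03), miR-199a-3p (-0.03) and miR-214-3p (-0.08) did not pass. The call of miR-29c-3p was lost under 3 of the 9 scalings, and without day 3 replicate 1 (adjusted p = 0.0558), day 3 replicate 2 (0.0727) or day 9 replicate 4 (0.35, adjusted p = 0.102). None of 6 vascular miRNAs passed, among them miR-145a-5p at 0.38 (adjusted p = 0.0861) and miR-221-3p at 0.04. Of the epithelial list, miR-203-3p of skin rose by 0.71 (SE 0.215, adjusted p = 0.0141) and miR-215-5p of gut by 0.54 (SE 0.206, adjusted p = 0.0483), and the miR-200 family was not among the tested. miR-203-3p, a dim miRNA, lay at 0 with normexp (adjusted p = 1), whose offset draws such changes toward 0. Its call was lost with the total gene signal (0.158), with no filter (0.0686) and without day 9 replicate 4 (0.0589). miR-215-5p lost its call under 4 of the 9 scalings, and on leaving out any array except day 3 replicate 3 and day 9 replicate 3 (adjusted p up to 0.132). The 2 tested brain miRNAs, miR-128-3p (-0.11) and miR-219a-5p (0.25), did not pass, and no pancreas miRNA was bright enough to test.

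In the let-7 family, which restrains proliferation in differentiated cells, 1 of 9 tested members was lower (11.1%, beside 25% of all tested miRNAs) and none higher. let-7e-5p fell by 0.84 (SE 0.209, adjusted p = 0.0037), from values between -5.76 and -5.09 to the floor on all 4 day 9 arrays, so that the floor bounds the size of the fall. It was still well above background on those 4 arrays. The call was lost with normexp (-0.032, adjusted p = 1), with the authors' deposited values (-0.30, adjusted p = 0.151) and with the total gene signal (0.18, adjusted p = 0.95). At so dim a signal the normexp offset draws any change toward 0. let-7f-5p read -0.77, -0.36, -0.67 and -0.59 at day 3 and -0.78, -1.23, -1.23 and -1.79 at day 9, without overlap, at a change of -0.66 (SE 0.255, adjusted p = 0.0503) just outside the threshold. The other members lay between -0.45 (let-7a-5p) and 0.33 (let-7b-5p), and the median of -0.27 turned positive under 7 of 9 scalings. In the family of miR-130 and its relatives, miR-301a-3p rose by 0.49 (SE 0.165, adjusted p = 0.0259), while miR-301b-3p (0.28) did not pass. miR-721, outside the list but with the same seed as miR-301a-3p, fell by 1.36, a lower call kept under 7 of the 9 scalings. The call of miR-301a-3p was lost under 3 of the 9 scalings and without day 3 replicate 1, day 3 replicate 2 (0.36, adjusted p = 0.114), day 9 replicate 1 or day 9 replicate 4. The miR-23/27/24 family, with miR-23a-3p at -0.23 and miR-23b-3p at -0.18, had no call among 5 tested, nor did the miR-181 family among 4, whose miR-181a-5p (-0.13, adjusted p = 0.0574) and miR-181b-5p (-0.03) lay at or near the floor. miR-34a-5p, a target of p53, lay at the floor on all 8 arrays, though well above background on 3 of 4 at day 3 and all 4 at day 9.

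The Dlk1-Dio3 list and the Sfmbt2 intron list each held 1 lower call. These were 33.3% and 12.5% of their tested members, beside 25% of all tested miRNAs. Of 12 listed miRNAs of the Dlk1-Dio3 cluster 3 were tested, and miR-370-3p fell by 0.65 (SE 0.21, adjusted p = 0.02) with overlapping days. That call was kept under 0 of the 9 scalings by limma, where the change was -0.52 to -0.23, and was lost on leaving out any 1 of 4 arrays (day 3 replicates 2 and 4, day 9 replicates 1 and 2; adjusted p up to 0.0832). miR-134-5p (-0.26) and miR-494-3p (0.18) did not pass, and the list median of -0.26 turned positive under 6 of 9 scalings. Outside the list, limma called other miRNAs close by on chromosome 12. miR-434-3p rose by 0.69 (adjusted p = 0.0208), a call kept under all 9 scalings. It lay at the floor on all day 3 arrays and read -6.21, -5.27, -5.89 and -4.69 at day 9, where replicate 1 was at the floor too. miR-3072-5p fell by 0.68 (adjusted p = 0.00103) and miR-1906, which has 2 loci, by 0.48 (adjusted p = 0.0037). Those calls were kept under 3 and 2 of the 9 scalings. The Sfmbt2 intron list was drawn by name (miR-297, miR-466, miR-467 and miR-669), not by position, and its miR-466i-3p maps to chromosome 13. It is therefore a set of related names rather than a single locus. Of its 61 miRNAs 8 were tested. miR-466h-3p fell by 0.71 (SE 0.227, adjusted p = 0.0187) to the floor on 3 of 4 day 9 arrays (0.26 with the total gene signal, adjusted p = 0.909, and -0.014 with normexp, adjusted p = 1), and miR-669n at 0.57 (adjusted p = 0.254) did not pass. miR-466h-3p was still well above background on all 4 day 9 arrays. The median of this name-based list, -0.05, turned positive under all 9 scalings.

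Lower calls were a larger share of miRNAs with high miRBase numbers, which were catalogued late and have few known functions. Of 198 tested miRNAs numbered over 3000, 68 (34.3%) were lower and 2 (1.01%) higher (median -0.35). Of 28 numbered from 1000 to 3000, 14 (50%) were lower and 0 higher by limma (median -0.42). Of 218 numbered under 1000, 29 (13.3%) were lower and 42 (19.3%) higher (median 0.03). Among all 444 tested, 25% were lower and 9.91% higher. Over the 9 scalings, the number of lower calls ranged from 6 to 56 among those over 3000 and from 10 to 26 among those under 1000. The higher calls ranged from 3 to 10 and from 38 to 91. The median of those over 3000 lay between -0.23 and -0.01 under them, and that of those under 1000 between 0.12 and 0.46.

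The largest fall was that of miR-712-5p, a mouse miRNA of the Rn45s locus known from endothelium under disturbed flow. It read -1.87, -1.09, -2.55 and -2.54 at day 3 and -3.86, -4.43, -3.62 and -4.00 at day 9, with a wide day 3 group and no overlap. The change was -1.96 (SE 0.283, adjusted p = 4.89e-05), lost with no scaling (adjusted p = 0.052) and with the total gene signal, where it was -0.53 (adjusted p = 0.134). With the authors' deposited values it was -0.70 and called (adjusted p = 0.00121). miR-208a-5p, from the hairpin of the heart miRNA miR-208a but on the strand opposite to miR-208a-3p, fell by 1.73 (SE 0.296, adjusted p = 0.000221), from values between -2.16 and -1.25 to values between -3.90 and -2.99. Its call was lost with no scaling (adjusted p = 0.0842) and with the hybridisation spike-ins (0.068), and with the authors' deposited values it was -1.10 (adjusted p = 0.00227). The fall of this strand stood beside the rises of miR-1a-3p and miR-133, and miR-208a-3p itself was not measurable.

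A pair of bright miRNAs fell. miR-3963 read 3.99, 4.75, 3.78 and 4.06 at day 3 and 2.50, 2.02, 3.31 and 2.84 at day 9, and miR-5100 read 3.33, 3.96, 3.34 and 2.96 and then 2.08, 1.69, 2.38 and 1.98. Both pairs of groups were apart, and in both day 3 replicate 2 was the highest and day 9 replicate 2 the lowest array. The falls were 1.48 (SE 0.259, adjusted p = 0.000241) and 1.37 (SE 0.186, adjusted p = 2.92e-05), each lost with no scaling (adjusted p = 0.202 and 0.218) and with the hybridisation spike-ins (adjusted p = 0.176 and 0.187). miR-3963 took 6.04% of the summed mean signal at day 3 and 2.09% at day 9.

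Several dim miRNAs with large falls came close to the floor or reached it. The lowest scaled signal well above background on the day 9 arrays was -7.34 to -7.04, below the floor, so a value at the floor does not mean absence. miR-7217-5p, miR-714, miR-1955-3p and miR-327 were well above background on all 4 day 9 arrays. miR-7217-5p fell by 1.44 (SE 0.223, adjusted p = 8.74e-05), from values between -4.59 and -4.12 to values between -6.14 and -5.17. miR-714 (-1.55), miR-1955-3p (-1.52) and miR-327 (-1.38) were at the floor of -6.21 on 1, 2 and 3 day 9 arrays, so the floor bounds the size of their falls. All 4 kept their calls under the 9 scalings, but none did with normexp background correction, where they were -0.14 for miR-7217-5p, -0.12 for miR-714, -0.15 for miR-1955-3p and -0.092 for miR-327 (adjusted p = 1 each). The normexp offset of 50 draws changes of such dim miRNAs toward 0, so this loss does not decide whether they fell. With the total gene signal the calls of miR-7217-5p (-1.50, adjusted p = 0.2), miR-714 (-0.54, adjusted p = 0.917) and miR-327 (-0.82, adjusted p = 0.687) were lost too, and with the authors' deposited values the 4 falls were called at -0.75, -0.31, -0.41 and -0.27. Under the 9 scalings calls were also kept for miR-6402, miR-5130 and miR-1931, which were chosen after their values were seen.

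Called miRNAs differed in base composition. The 36 higher calls with a sequence had a median GC content of 41.9%, the 92 lower calls 61.9% and all 373 tested with a sequence 56.0%. Of 138 miRNAs with GC content over 60%, 3 were higher and 50 lower, and of 38 with at most 40%, 11 were higher and 4 lower. The median level was -2.18 for the higher calls and -3.44 for the lower. Across these 373 miRNAs, which share the same 8 arrays, the change correlated with GC content at Pearson r of -0.276 (Spearman rho -0.323), given as a description. For the change of the vehicle mice from day 3 to day 9, r was -0.452. With length the change gave r of -0.047, and with mean level 0.057. Among the higher calls 61.1% of sequences started with U, among the lower calls 34.8% and among all 39.1%.

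The vehicle mice of the same days, measured on one slide, show what changed without the drug. From day 3 to day 9, 61 miRNAs (13.7%) were called in them, 42 (9.46%) higher and 19 (4.28%) lower, and under 6 alternatives limma called 0. Other scalings gave splits of 31 higher and 25 lower (probes of the 8 arrays), 28 and 28 (quantile), 25 and 39 (median), 2 and 4 (labelling spike-ins) and 9 and 19 (authors' values). The vehicle arrays of days 3 and 9 were dimmer, with 184 to 300 miRNAs well above background. The change in the TSN arm differed from that in the vehicle arm for 84 miRNAs (18.9%), 17 (3.83%) more positive and 67 (15.1%) more negative with TSN. That split was 31 and 4 with all probes, 49 and 30 with probes of the 8 arrays, 33 and 37 with quantile normalization, 37 and 49 with the median, 16 and 6 with 4 spike-in genes, 13 and 8 with none, 31 and 7 with labelling and 12 and 9 with hybridisation spike-ins, and 26 and 15 with the authors' values.

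The muscle miRNAs had no call in the vehicle mice. miR-133b-3p changed by -0.36 in them and was well above background on none of their 8 arrays, and the difference between arms was 4.70 (adjusted p = 0.000637). miR-1a-3p, well above background on 1 of them, changed by 0.31 there, a difference of 2.62 (adjusted p = 0.00528). The difference also passed for miR-486a-5p (1.92, adjusted p = 0.000289), miR-25-3p (1.35, adjusted p = 0.00425), miR-93-5p (1.13, adjusted p = 0.00425), miR-16-5p (1.05, adjusted p = 0.00629) and miR-106b-5p (1.00, adjusted p = 0.0119). It did not pass for miR-451a (0.88, adjusted p = 0.0674) and miR-144-3p (0.95, adjusted p = 0.0583). Because the change with TSN is part of this difference, its tests are not independent of the calls above.

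Other miRNAs fell with TSN and were higher at day 9 in the vehicle mice. miR-26a-5p rose by 0.85 in the vehicle mice (adjusted p = 0.025) and fell by 1.18 with TSN, a difference of -2.03 (adjusted p = 0.00037). For miR-142a-3p, at 0.79 in the vehicle mice (adjusted p = 0.0746), the difference was -2.05 (adjusted p = 0.00143). For let-7e-5p it was -1.86 (adjusted p = 0.000289), but this miRNA was well above background on none of the 8 vehicle arrays of days 3 and 9. By contrast miR-30b-5p rose by 0.71 in the vehicle mice (adjusted p = 0.0249) and by 0.74 with TSN, and miR-301a-3p by 0.61 and 0.49, with differences of 0.02 and -0.12 (adjusted p = 0.976 and 0.756). miR-208a-5p fell in both, by 1.01 (adjusted p = 0.0326) and 1.73.

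**Figure D5:**
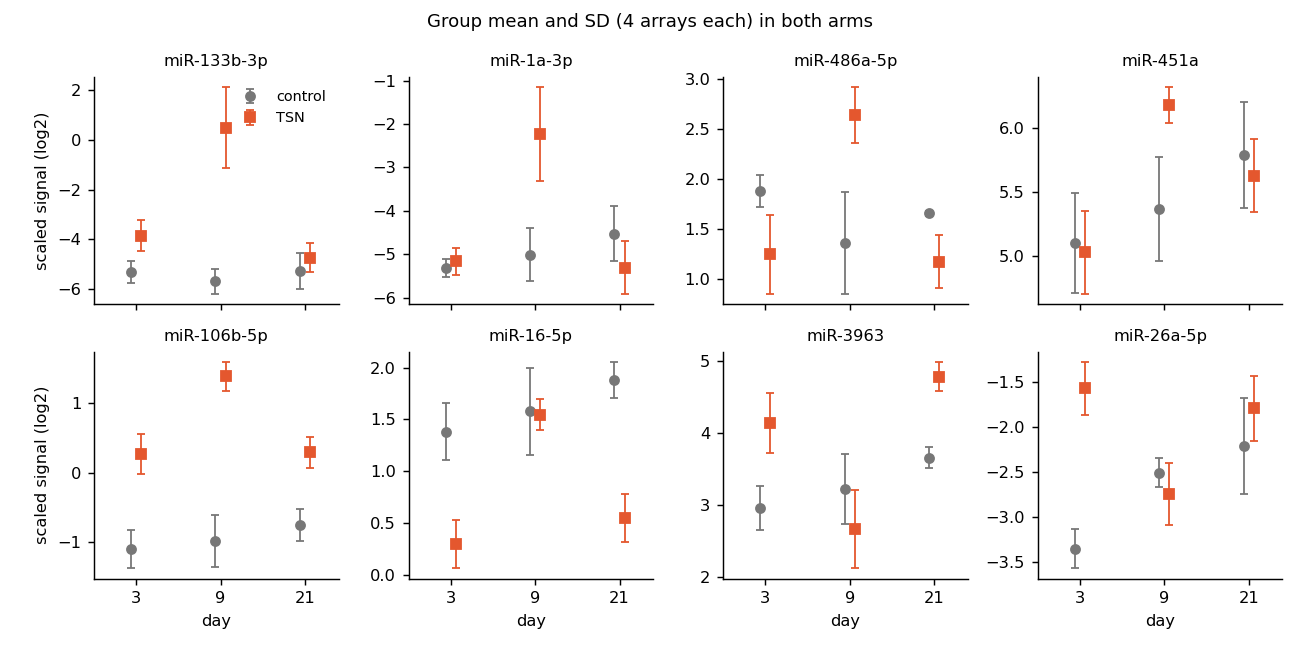
Group mean and SD (4 arrays each) of the scaled signal (log2) at days 3, 9 and 21 in vehicle (circles) and TSN mice (squares) for 8 miRNAs, each panel with its own scale. The TSN mean of miR-133b-3p is -3.84 at day 3, 0.49 at day 9 and -4.73 at day 21, and that of miR-106b-5p 0.27, 1.39 and 0.30.

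TSN day 21 lay on the same slide as day 9, and its values stand within that slide. Of 444 miRNAs 193 (43.5%) were called between them, 136 (30.6%) higher and 57 (12.8%) lower at day 21. miR-133b-3p was at a mean of -4.73 at day 21, a change of -5.23 from day 9 (adjusted p = 5.12e-06), and miR-1a-3p at -5.31, a change of -3.07 (adjusted p = 4.39e-05). miR-106b-5p was at 0.30 (-1.09 from day 9, adjusted p = 0.000215) and miR-486a-5p at 1.17 (-1.47, adjusted p = 4.87e-05). The day 3 means of these 4, on the other slide, were -3.84, -5.17, 0.27 and 1.24. Among the falls, miR-3963 was 2.12 above day 9 (adjusted p = 9.72e-06), miR-5100 1.36 above (adjusted p = 3.37e-05) and miR-26a-5p 0.96 above (adjusted p = 0.00274). No difference from day 9 passed for miR-208a-5p at -3.50 (-0.01, adjusted p = 1), miR-30a-5p at -2.93 (-0.10, adjusted p = 0.619) and miR-451a at 5.63 (-0.55, adjusted p = 0.0636).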

How the data were processed

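Agilent one-colour (Cy3) mouse miRNA arrays were scanned and extracted by the authors with Feature Extraction 10.7.1.1, per the file headers, and the deposited processed signals are background-corrected intensities. The authors' deposited value table was used as an alternative, read as log2 values; its scaling is not given in the sources used here. Here, spots of a probe were averaged without outlier flags, divided by each array's 75th percentile over 261 probes well above background on all 24 arrays, raised to a floor of 0.0135 and taken as log2, and the probe of highest mean stood for a miRNA. A probe counted as well above background where more than a share of 0.5 of its spots were. No spot was saturated. limma 3.58.1 (R 4.3.3) fitted 6 groups of 4 arrays on 444 miRNAs with Benjamini-Hochberg adjustment at 0.05, so that the 24 arrays share one estimate of spread. Array measures were compared by exact permutation. The fit was tested on simulated data. The number of arrays limits the precision.

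Named were miR-106b-5p with the 5 miRNAs most correlated with it, the 8 highest and 8 lowest called changes above background on all 8 arrays without overlap, up to 4 in each direction called and above background in one group only (0 were found), and the 2 members of smallest adjusted p of each list; other list members are given to account for their list and were chosen with their values seen. The comparison, members and lists were chosen with earlier results of these data known. Alternatives changed scaling, background correction, probe summary, floor, filter, arrays and replicate block. The alternative background correction was normexp with an offset of 50. Sequences and positions are from RefSeq, GRCm38.p6.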

Additional observations from a re-analysis of the deposited data

Results flagged for a closer look

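Of 100 groups of 4 arrays checked, 4 held an array far from the other 3, where chance flags about 1 in 20. The gap to the nearest array, as a share of the group's range, was 0.845 for miR-1a-3p at TSN day 3, where replicate 4 read -5.63 and the others -5.05 to -4.95. It was 0.858 for miR-215-5p at TSN day 9, where replicate 3 read -1.83 and the others -1.19 to -1.08. For miR-327 and miR-466h-3p at TSN day 9 the ratio was 1, because 3 arrays lay at the floor of -6.21 and replicate 3 read -5.87 and -6.18.

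For 22 of the 46 miRNAs named by rule, the change from day 3 to day 9 differed between the arms by limma's test of the difference (TSN change minus vehicle change, log2, adjusted p in parentheses). Among all 444 tested miRNAs, 84 (18.9%) differed. The 46 were picked largely by their change with TSN, which is part of this difference, so their count is raised by that choice. It was positive for miR-133b-3p at 4.70 (0.000637), miR-133a-3p at 3.97 (0.00108), miR-1a-3p at 2.62 (0.00528), miR-486a-5p at 1.92 (0.000289), miR-25-3p at 1.35 (0.00425), miR-93-5p at 1.13 (0.00425), miR-16-5p at 1.05 (0.00629), miR-106b-5p at 1.00 (0.0119) and miR-30a-5p at 0.79 (0.00593). Among miRNAs called lower with TSN it was -2.10 for miR-466h-3p (0.000289), -2.05 for miR-142a-3p (0.00143), -2.04 for miR-7217-5p (0.000289), -2.03 for miR-26a-5p (0.00037), -1.86 for let-7e-5p (0.000289) and -1.75 for miR-3963 (0.00234). Smaller negative differences were those of miR-5100 at -1.36 (0.00116), miR-1955-3p at -1.35 (0.00454), miR-712-5p at -1.33 (0.0232), miR-714 at -1.28 (0.00293) and miR-327 at -1.18 (0.0169). let-7f-5p at -1.32 (0.0141) and miR-126a-3p at -0.75 (0.0495) differed between the arms without a call in the TSN arm. The vehicle arrays were dimmer and lay on another slide, and the part of both in these differences was not tested. miR-133b-3p, miR-133a-3p, miR-466h-3p, let-7e-5p, miR-714 and miR-327 were well above background on 0 vehicle arrays of day 3 and 0 of day 9. miR-1a-3p was so on 0 and 1, miR-1955-3p on 1 and 1, and miR-7217-5p on 2 and 1. The vehicle changes of these miRNAs therefore rest mostly or wholly on signals not well above background.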

How the results depend on the processing

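Against 155 calls (44 higher, 111 lower), the counts were 85 (26 lower) with the 75th percentile over all probes, 82 (25 lower) with the 4 spike-in genes, 66 (19 lower) with no scaling and 65 (23 lower) with the hybridisation spike-ins. The labelling spike-ins gave 76 higher and 30 lower, probes of the 8 arrays 103 and 58, the 8 arrays alone 106 and 53, quantile normalization 68 higher, the authors' values 54 lower and no filter on dim miRNAs 27 higher. Normexp gave 55 (16 higher, 39 lower), all of them among the 155, and the total gene signal 59 (15 higher, 44 lower). Both spike-in subsets and the last block fit below were chosen after seeing the data. The cause of these shifts was not tested.

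The vehicle count of 61 was 0 by limma with all probes, 4 spike-in genes, no scaling, hybridisation spike-ins, normexp and total gene signal (42, 17, 6, 6, 11 and 55 at an unadjusted p under 0.05), 6 with labelling spike-ins, 11 with no filter and 28 with the authors' values. The 84 differences between arms were 35 with all probes, 22 with 4 spike-in genes, 21 with no scaling, 38 with labelling and 21 with hybridisation spike-ins, 20 with normexp, 17 with the total gene signal, 44 with no filter and 41 with the authors' values.

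Among named miRNAs, these changed sign. With all probes miR-128-3p was 0.19, miR-23a-3p 0.063, miR-23b-3p 0.12 and miR-134-5p 0.034. With probes of the 8 arrays miR-126a-3p was 0.013, miR-128-3p 0.27, miR-23a-3p 0.15, miR-23b-3p 0.20 and miR-134-5p 0.12, and with the 8 arrays alone 0.013, 0.27, 0.15, 0.20 and 0.16. In the same order they were 0.029, 0.29, 0.16, 0.22 and 0.13 with 4 spike-in genes, 0.059, 0.32, 0.19, 0.24 and 0.16 with no scaling, 0.058, 0.32, 0.19, 0.24 and 0.16 with labelling spike-ins, and 0.00012, 0.26, 0.13, 0.19 and 0.10 with hybridisation spike-ins. Under quantile normalization miR-128-3p was 0.051, miR-29a-3p -0.071 and miR-23b-3p 0.078. miR-128-3p was 0.027 with the median and 0.078 with the authors' values, and from -0.30 to 0.082 on leaving out 1 array, the highest without day 3 replicate 3. miR-219a-5p was -0.031 with normexp, and with the total gene signal miR-101b-3p was -0.089, miR-181a-5p 0.43, let-7e-5p 0.18 and miR-466h-3p 0.26. The called ones among them were let-7e-5p and miR-466h-3p.

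Leaving out 1 array gave 123 to 182 calls, 33 to 53 higher and 88 to 133 lower. The difference in brightness was then 0.219 to 0.573, the highest without day 3 replicate 1, and that in miRNAs above background -12.25 to 15.083, the lowest without day 3 replicate 2. Same-numbered arrays of the days did not deviate together (r = 0.0491, -0.214, -0.565 and -0.25, none best with its own number). The replicate block on the 8 arrays gave 1 call, 1 higher and 0 lower by limma (158 at an unadjusted p under 0.05), and 93, with 23 higher and 70 lower, over miRNAs above background on all 8.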
